A study of Mus musculus with 6 samples.

Results

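Vascular and meningeal cell genes are a set of 34 genes listed by symbol, and an Ensembl ID was found for 33 of them among the 52636 genes of the count table. They comprised 16 endothelial genes, 2 ligands that act on endothelium, 5 mural genes and 10 fibroblast genes. No ID used here carried the symbol Cspg4os, so that gene has no value below. The members were chosen by name, as genes of these cell types, and no measured value enters the rule. Tissue was V1, the cortical area that first receives visual input, dissected from C57BL/6J wild-type animals at postnatal day 28 after the right eyelid had been sutured for 3 days. Closing an eye in this way is called monocular deprivation. Each of 3 mice gave a contralateral library of total RNA from the left V1, opposite the sutured eye, and an ipsilateral library from the right V1. All the mice were deprived, so the ipsilateral hemisphere is an internal comparison and not an undeprived control.

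Brain capillaries are lined by endothelial cells that are sealed by tight junctions and carry dedicated transporters, which together form the blood-brain barrier. Mural cells wrap these vessels: pericytes cover capillaries and smooth muscle cells surround arterioles. Fibroblasts lie around larger vessels and in the meninges, the membranes over the cortex, where they deposit collagens and proteoglycans.

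The upstream sequences of 3 endothelial genes are shown because their products stand for the growth factor receptors and the barrier described below. They were chosen after the values were seen. Each is the 250 bases before the RefSeq start (GRCm38.p6), 5′ to 3′ on the strand of the gene. They are Flt1 at chr5:147726012-147726261 on the minus strand, Kdr at chr5:75978456-75978705 on the minus strand and Cldn5 at chr16:18776597-18776846 on the plus strand. Capitals mark matches on either strand to AGGAAG (recognised by ETS factors), TGACGTCA (the cyclic AMP response element) and GCGGGGGCG (recognised by Egr factors). None of the marked matches overlap each other.
Flt1: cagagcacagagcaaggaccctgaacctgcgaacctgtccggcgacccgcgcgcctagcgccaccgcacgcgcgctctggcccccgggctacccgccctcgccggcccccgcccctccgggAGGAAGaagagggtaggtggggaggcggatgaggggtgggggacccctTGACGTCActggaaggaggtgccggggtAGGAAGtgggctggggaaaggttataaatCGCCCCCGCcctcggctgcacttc
Kdr: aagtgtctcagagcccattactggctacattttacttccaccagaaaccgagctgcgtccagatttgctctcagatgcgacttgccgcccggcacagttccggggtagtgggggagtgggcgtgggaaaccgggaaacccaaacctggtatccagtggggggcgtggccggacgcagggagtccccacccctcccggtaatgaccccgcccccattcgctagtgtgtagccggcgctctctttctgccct
Cldn5: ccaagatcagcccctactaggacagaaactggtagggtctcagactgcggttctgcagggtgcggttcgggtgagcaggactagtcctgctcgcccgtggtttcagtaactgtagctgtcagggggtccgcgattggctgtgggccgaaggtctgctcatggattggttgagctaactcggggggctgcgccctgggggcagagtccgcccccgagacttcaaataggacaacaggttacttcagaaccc

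Flt1 held 2 matches to AGGAAG, 1 to TGACGTCA and 1 to GCGGGGGCG, while the Kdr and Cldn5 windows held none. RefSeq windows were found for 25 of the 33 members. A member with several windows is counted if any of them holds a match, whereas the shares over all are per window. AGGAAG stood in the windows of 7 of these 25 genes, against 29.5% of all 32851 RefSeq windows of the same length. Abcb1a, Slco1a4 and Slco1c1 are among these 7, and the bases after their windows were not found in an annotated transcript of the gene. The same held for 1 window of Ly6c1, also among the 7. TGACGTCA stood in 1 (Flt1), against 1.55% of all windows, and GCGGGGGCG in 2 (Flt1 and Ocln), against 2.57%. TGACTCA, the AP-1 site, stood in none of the 25, against 4.46% of all windows. These are matches of letters and do not show that a factor was bound.

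Libraries held 17849253 to 32213500 reads assigned to genes. The gene of mitochondrial ribosomal RNA mt-Rnr1 split them into a low and a high set that did not follow the hemispheres. Contralateral 1, ipsilateral 1 and ipsilateral 3 had 14.5 to 35.9 CPM (counts scaled to library size with TMM factors), and the other libraries had 2243 to 5801 CPM. The 14 immediate early genes examined, which neuronal activity switches on, summed to 460, 518 and 707 CPM in contralateral V1 and to 1586, 1398 and 1465 CPM in ipsilateral V1, and 10 of them fell in edgeR (adjusted p under 0.05), or all 14 with the mouse as a block. The smallest p-values among them were those of Nr4a1 (-1.71), Egr2 (-2.95), Junb (-1.27) and Fos (-2.02), with log2 fold changes in parentheses. Excitatory neuron markers summed to 4458 to 5921 CPM and astrocyte markers to 11142 to 13999 CPM, against 503 to 658 CPM for the 16 endothelial genes and 46.2 to 79.0 CPM for the 10 fibroblast genes.

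Levels of the members differed widely when set per transcript length, as TPM over all 6 libraries. Rgs5, a regulator of G protein signalling that marks pericytes, was highest at 123 ± 17.6 TPM (SD, n = 6), above 94.3% of the genes tested. Next came Itm2a, a membrane protein enriched in brain endothelium (71.0 ± 11.5 TPM), the glucose transporter gene Slc2a1 (64.1 ± 10.5 TPM), Slco1c1, a thyroxine transporter of the barrier (55.7 ± 10.5 TPM), and the vitronectin gene Vtn of pericytes (55.3 ± 8.69 TPM). Neighbours among these last 4 differed by less than their SDs. Endothelial receptors were lower, with 24.1 ± 3.29 TPM for Flt1, 19.7 ± 3.79 TPM for Tek, 11.8 ± 1.86 TPM for Kdr and 7.74 ± 1.96 TPM for Tie1. The median was 24.8 TPM for endothelial, 20.0 TPM for mural and 4.03 TPM for fibroblast genes. The lowest member was Lum, the proteoglycan lumican, at 0.918 ± 0.497 TPM, with as few as 6 reads in a library.

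**Figure D1:**
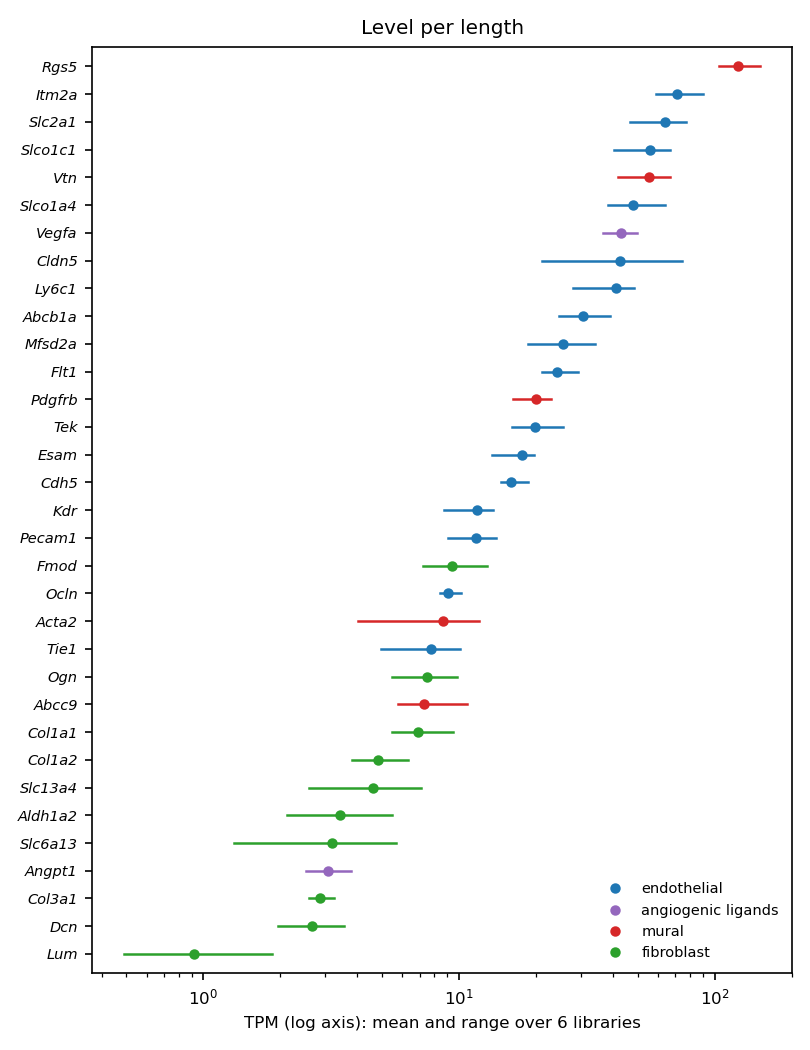
Mean level (points) and range over the 6 libraries (lines) of each member in TPM on a log axis, coloured by class. Rgs5 is highest at 123 TPM and Lum lowest at 0.918 TPM, and 9 of the 10 fibroblast genes lie under every endothelial gene, Fmod being above Tie1 and Ocln.

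The main comparison asked whether vascular and meningeal genes differed between the V1 opposite the sutured eye and the V1 on its side. No member passed the test. In edgeR's quasi-likelihood test 0 of the 33 members passed an adjusted p under 0.05, against 0.127% of the 20473 genes tested, and adjusted p-values of members ran from 0.824 to 0.999. No member had an unadjusted p under 0.05, against 6.15% of all genes. Blocking by mouse also left 0 members past that threshold, against 0.894% of all genes, and the smallest adjusted p was 0.364. In that fit 3 members had an unadjusted p under 0.05 (Abcb1a, Acta2 and Abcc9), against 13.2% of all genes. In DESeq2 the counts were 0 and 0. The median log2 fold change of the members was 0.00, against 0.03 over all genes tested, and it was negative for 15 of 33 members, against 44.6% of all genes. Tissue RNA cannot tell fewer cells of a type from less RNA per cell.

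The groups overlapped for each of the 33 members, whereas 6.29% of all genes had every contralateral library below every ipsilateral one and 6.7% had the reverse. No member was lower in contralateral V1 in all 3 mice, against 17.3% of all genes. Flt1, Slco1a4, Abcb1a and Abcc9 were higher in all 3 mice, which is 4 of 33, against 19.2% of all genes. The 95% intervals of the difference show what sizes the data allow. For 18 of the 33 members, 12 of them endothelial, the interval lay within a 1.5-fold change in either direction, and for 27 it lay within a 2-fold change. It reached beyond 2-fold for Cldn5, Acta2, Dcn, Lum, Slc6a13 and Aldh1a2. When blocked by mouse the intervals were narrower, with 27 members, all 16 endothelial ones among them, within 1.5-fold and 30 within 2-fold. In that fit Acta2, Lum and Slc6a13 reached beyond 2-fold, and the interval of Cldn5 was -0.07 to 0.52. The blocked intervals of Acta2 (-1.02 to -0.015), Abcb1a (0.0027 to 0.41) and Abcc9 (0.0054 to 0.57) left out 0. They are not adjusted for the number of genes tested.

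**Figure D2:**
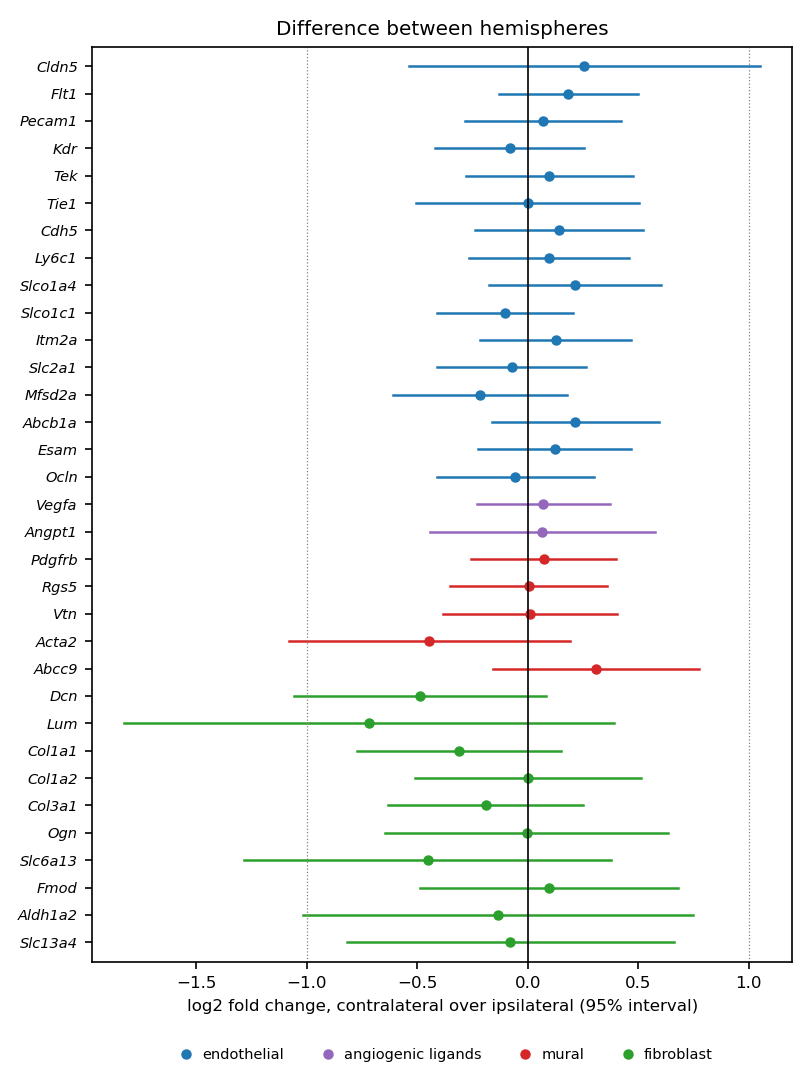
Log2 fold change of each member, contralateral over ipsilateral, from edgeR without the block (points) with its 95% interval (lines), with dotted lines at -1 and 1. In this fit every interval crosses 0, and the widest belong to the low fibroblast genes and to Cldn5 and Acta2.

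Among receptors for vascular growth factors, Flt1 (VEGF receptor 1, which binds VEGF-A tightly and limits its signal) stood at 74.0, 106 and 91.5 CPM in contralateral V1 of mice 1 to 3, and at 72.1, 87.4 and 79.3 CPM in ipsilateral V1. The contralateral value was above the ipsilateral one in each mouse, but mouse 1 was low on both sides, so the groups overlapped. Means were 90.4 ± 16.0 CPM contralateral and 79.6 ± 7.63 CPM ipsilateral (SD, n = 3 each). Its log2 fold change was 0.18 (SE 0.14, interval -0.13 to 0.50, edgeR adjusted p = 0.863). Kdr (VEGF receptor 2, the main signalling receptor) had 24.8, 32.8 and 22.8 CPM contralateral and 28.5, 29.9 and 26.7 CPM ipsilateral, a log2 fold change of -0.08 (-0.42 to 0.26). Only mouse 2 had the higher Kdr value in contralateral V1. The angiopoietin receptor gene Tek (0.10, -0.28 to 0.48) and its partner Tie1 (0.00, -0.51 to 0.50) lay near 0 with wide overlap.

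The ligands had differences near 0. Vegfa, made in brain mainly by glia and neurons, had 45.5, 56.9 and 45.2 CPM in contralateral and 50.9, 48.6 and 41.0 CPM in ipsilateral libraries. Its log2 fold change of 0.07 (-0.23 to 0.37) is among the most precise of all members. Angpt1, the ligand that activates Tek, was rare at 3.11 to 3.93 CPM contralateral and 2.70 to 3.76 CPM ipsilateral (0.07, -0.44 to 0.58). Of its exon bases 6.65% also belong to a gene on the other strand, and the strand setting of the counting is not given, so its counts are less certain.

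Of the junction and adhesion genes of endothelium, Cldn5 varied most between libraries. Cldn5, the claudin that seals the tight junctions of brain endothelium, stood at 25.8, 16.0 and 8.59 CPM in contralateral V1 of mice 1 to 3, and at 22.1, 10.9 and 9.39 CPM in ipsilateral V1. Both hemispheres of mouse 1 were high and both of mouse 3 low, so Cldn5 sorted by mouse rather than by hemisphere. Differences between mice held 91.5% of its sum of squares on the log2 scale and hemispheres 3.19%. Its highest library had 3.01 times the level of its lowest, and the median of this ratio over endothelial members was 1.46. Its hemisphere difference was 0.26 (-0.54 to 1.05), and within the low and high mt-Rnr1 sets 0.71 and 0.16. These sets compare libraries of different mice, and within mouse 1 the log2 difference of Cldn5 was 0.22.

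Other endothelial genes did not share the size of that change between mice. The level of Cldn5 relative to Pecam1, an adhesion molecule of all endothelium, was 1.43, 0.683 and 0.528 in contralateral V1 of mice 1 to 3, and 1.22, 0.562 and 0.539 in ipsilateral V1. Tie1 had the same order of mice, with 11.5, 10.98 and 7.02 CPM contralateral and 12.5, 9.43 and 7.63 CPM ipsilateral. Pecam1 itself (0.07), the VE-cadherin gene Cdh5 (0.14), the adhesion gene Esam (0.12), the tight junction gene Ocln (-0.06) and Ly6c1, a surface marker of endothelium (0.10), had log2 fold changes close to 0. Ocln was the steadiest member, its highest library at 1.17 times its lowest. Ly6c2, the near copy of Ly6c1, held 4 reads over all libraries.

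Transporters had small, uncalled differences in both directions. Slco1a4, an organic anion transporter, had 64.9, 109 and 83.6 CPM contralateral and 61.7, 78.8 and 81.8 CPM ipsilateral (0.21, interval -0.17 to 0.60, edgeR adjusted p = 0.870). Abcb1a, the P-glycoprotein drug efflux pump, had 35.9, 57.1 and 47.6 CPM contralateral and 33.96, 46.4 and 40.7 CPM ipsilateral (0.22, -0.16 to 0.59, edgeR adjusted p = 0.865, or 0.370 blocked by mouse). Both were higher in contralateral V1 of each mouse, and the groups overlapped. The log2 differences in mice 1 to 3 were 0.07, 0.47 and 0.03 for Slco1a4 and 0.08, 0.30 and 0.23 for Abcb1a. Without contralateral library 2 the log2 fold changes were 0.0022 for Slco1a4, 0.049 for Abcb1a and 0.055 for Flt1.

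Within the mt-Rnr1 sets the log2 fold change of Abcb1a was -0.07 (low) and 0.17 (high), that of Slco1a4 -0.16 and 0.29, and that of Flt1 -0.04 and 0.17. The sign was negative in the low set for all 3 genes. That set compares contralateral library 1 with ipsilateral libraries 1 and 3, and mouse 1 was lowest on both sides for these genes. Within mouse 1 the log2 differences were above 0, at 0.04 for Flt1, 0.07 for Slco1a4 and 0.08 for Abcb1a. The high set compares contralateral libraries 2 and 3 with ipsilateral library 2, so both sets mix mice. A set has a single library of one hemisphere, which is assumed to vary like the others. Abcb1a overlaps a gene of the other strand over 10.1% of its exon bases and has a near copy, Abcb1b, at 5.62, 6.48 and 6.09 CPM contralateral and 3.85, 4.99 and 5.00 CPM ipsilateral.

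On the other side of 0, Mfsd2a, which carries docosahexaenoic acid in lysolipids and restrains transcytosis, had 12.8, 16.2 and 12.05 CPM contralateral and 19.3, 14.5 and 13.9 CPM ipsilateral (-0.22, -0.61 to 0.18). Slco1c1 had a log2 fold change of -0.10 (-0.41 to 0.20). The glucose transporter gene Slc2a1 had 60.6, 62.9 and 47.0 CPM contralateral and 68.0, 62.6 and 48.8 CPM ipsilateral (-0.07, -0.41 to 0.26). Slc2a1 again followed the mouse, with both libraries of mouse 3 lowest and 93.6% of its sum of squares between mice. Itm2a had a log2 fold change of 0.13 (-0.22 to 0.47).

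Of the 5 mural genes, 3 lay near 0. The pericyte genes Rgs5 (0.00, interval -0.35 to 0.36), Vtn (0.01, -0.38 to 0.41) and Pdgfrb, the PDGF receptor that recruits pericytes (0.07, -0.26 to 0.40), had log2 fold changes near 0. Rgs5 had 119, 183 and 137 CPM contralateral and 135, 169 and 133 CPM ipsilateral, with mouse 2 highest on both sides. Abcc9, the sulfonylurea receptor subunit of the pericyte potassium channel, had 13.1, 24.2 and 16.0 CPM contralateral and 12.1, 16.0 and 14.6 CPM ipsilateral (0.31, -0.16 to 0.78, edgeR adjusted p = 0.844, or 0.367 blocked by mouse).

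Acta2, the smooth muscle actin gene of arterioles, had 4.88, 1.93 and 3.19 CPM contralateral and 4.74, 4.28 and 4.63 CPM ipsilateral (-0.44, -1.08 to 0.19, edgeR adjusted p = 0.844, or 0.364 blocked by mouse). Ipsilateral libraries were alike. Contralateral library 2 was the lowest, at 36 reads, and contralateral library 3 was also below every ipsilateral library. The ratio of Acta2 to Abcc9 was 0.373, 0.0798 and 0.199 in contralateral V1 of mice 1 to 3, and 0.391, 0.267 and 0.317 in ipsilateral V1. Across the 6 libraries log2 CPM of Acta2 and Abcc9 had r = -0.94, and this correlation describes libraries that share mice and mt-Rnr1 sets. Within the low set the differences were 0.05 for Acta2 and -0.04 for Abcc9, and within the high set -0.73 and 0.31. These sets mix mice, and within mouse 1 the log2 difference of Abcc9 was 0.11. Without contralateral library 2 the log2 fold changes were -0.18 for Acta2 and 0.025 for Abcc9. The 26 other mural genes, 25 of them tested, summed to 1008, 803 and 1090 CPM contralateral and 1125, 1170 and 1244 CPM ipsilateral. The lowest sum was in contralateral library 2. Sums of the hemispheres did not overlap, and 6.29% of all genes tested had every contralateral library below every ipsilateral one. This list holds Rgs4, described below, which neurons also express, and its part in the sum was not tested. Of the 25 tested, 10 had negative and 15 positive log2 fold changes, with a median of 0.09.

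**Figure D3:**
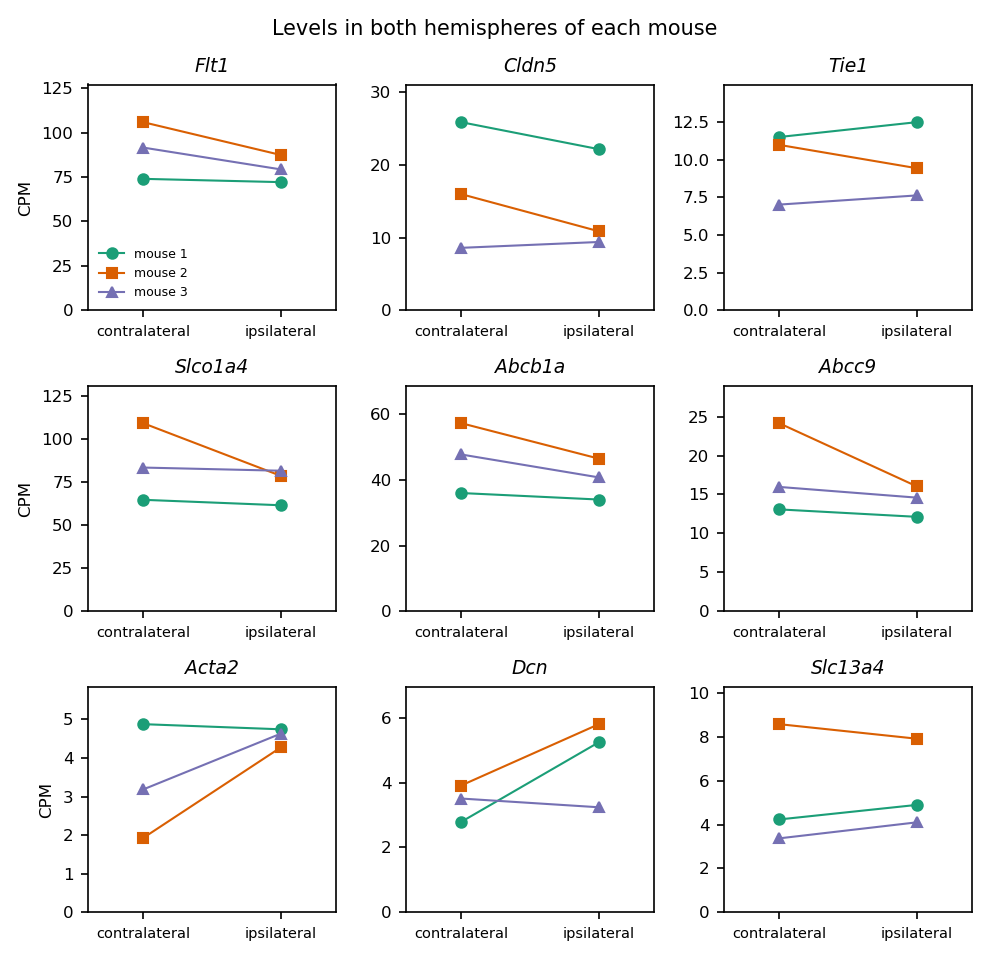
CPM (from 0) of 9 members in contralateral and ipsilateral V1, with a line joining both libraries of each mouse. Cldn5 and Slc13a4 separate by mouse, and Flt1, Slco1a4, Abcb1a and Abcc9 are higher on the contralateral side of each mouse, by most in mouse 2. Acta2 is lowest in contralateral library 2 (1.93 CPM).

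Fibroblast genes were the most variable class between libraries. The highest library had a median of 2.14 times the lowest, against 1.46 for endothelial members, and 6 of 10 intervals lay within a 2-fold change. The sign of the hemisphere difference also changed with the mouse. In mouse 1, 9 of the 10 fibroblast genes were lower in contralateral V1, in mouse 2 there were 5, and in mouse 3 there were 3. The median log2 differences were -0.63, -0.07 and 0.22 in mice 1 to 3. In sum the 10 genes had 49.6, 74.9 and 55.9 CPM in contralateral V1 of mice 1 to 3, and 72.3, 79.0 and 46.2 CPM in ipsilateral V1.

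Several genes of fibrillar matrix had negative log2 fold changes that did not pass the test. Dcn, the collagen-binding proteoglycan decorin, had 2.79, 3.91 and 3.51 CPM contralateral and 5.24, 5.80 and 3.24 CPM ipsilateral. It had the smallest unadjusted p of the members without the block, 0.0869 (log2 fold change -0.49, SE 0.26, interval -1.06 to 0.08, edgeR adjusted p = 0.824). Within the low and high mt-Rnr1 sets its log2 fold changes were -0.61 and -0.65. Col1a1 (type I collagen) followed Dcn closely across libraries, r = 0.95, with 9.16, 12.4 and 10.3 CPM contralateral and 15.7, 14.6 and 9.23 CPM ipsilateral (-0.31, -0.77 to 0.15). In both genes the ipsilateral libraries of mice 1 and 2 were high, and mouse 3 had the reverse order.

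Lum had 0.348, 0.321 and 0.646 CPM contralateral and 1.15, 0.713 and 0.369 CPM ipsilateral, the largest difference among members and the least precise (-0.72, -1.83 to 0.39). Col3a1 (type III collagen) had a log2 fold change of -0.19 (-0.63 to 0.25). Col1a2, the partner chain of Col1a1, had 0.00 (-0.51 to 0.51), with 12.5, 19.4 and 15.5 CPM contralateral and 19.8, 17.3 and 10.3 CPM ipsilateral. Ogn, a proteoglycan of the same family as decorin and lumican, had -0.01 (-0.65 to 0.63).

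Another subset of fibroblast genes was ordered by mouse. Slc13a4, a sulphate transporter of the meninges, had 4.23, 8.57 and 3.37 CPM contralateral and 4.89, 7.91 and 4.10 CPM ipsilateral. Aldh1a2, which makes retinoic acid in the meninges, had 1.24, 3.32 and 1.38 CPM contralateral and 1.95, 3.08 and 1.39 CPM ipsilateral, and Fmod, the proteoglycan fibromodulin, had 7.17, 11.4 and 6.92 CPM contralateral and 7.74, 10.7 and 5.29 CPM ipsilateral. Both libraries of mouse 2 were above all others in these 3 genes. Differences between mice held 95.4%, 89.1% and 90.0% of their sums of squares, and hemispheres 1.56%, 2.495% and 2.64%. Slc6a13, a GABA transporter of meningeal and vascular cells, instead had its lowest value in contralateral library 3 and its highest in ipsilateral library 1 (1.99, 2.89 and 1.11 CPM contralateral and 4.14, 1.98 and 2.13 CPM ipsilateral; -0.45, -1.28 to 0.38). It had 24 to 83 reads a library.

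**Figure D4:**
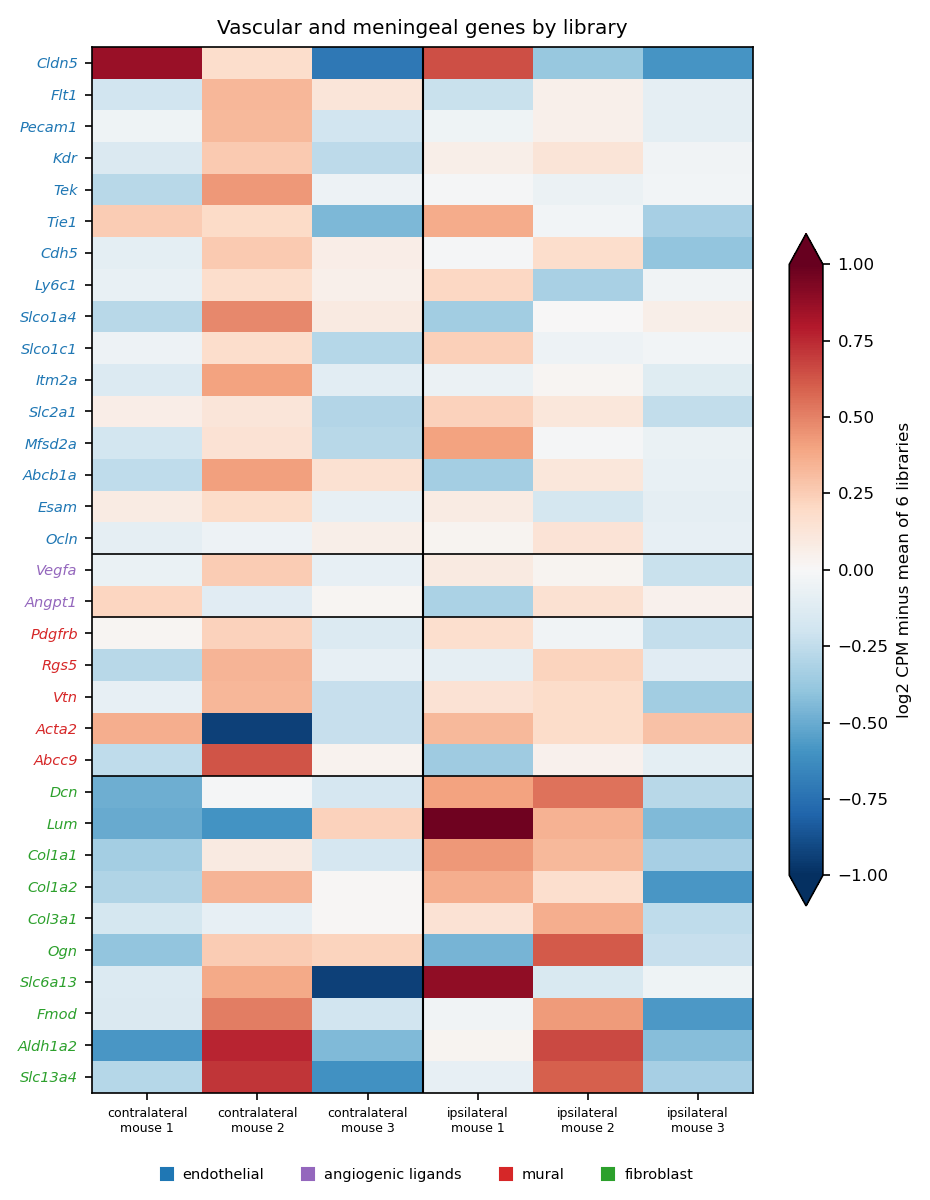
Log2 CPM of each member minus its mean over the 6 libraries, with contralateral libraries left of the line and ipsilateral ones right of it; colours saturate at -1 and 1. Contralateral library 2 is the highest library for 17 members, and Cldn5, Acta2 and the lower fibroblast rows stand out from the pale endothelial rows.

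The share of the sum of squares between mice, which has 2 degrees of freedom, was above that between hemispheres, which has 1, for 30 of the 33 members. Dcn, Lum and Angpt1 had the reverse. The median share was 63.1% between mice and 8.11% between hemispheres, against 48.4% and 14.5% over all genes tested. Both libraries of a mouse stood above or below all others in 20 of the 33 members, against 46.1% of all genes. Mouse 2 was highest on both sides for 11 members, against 6.29% of all genes, mouse 1 for 3 (17.7%) and mouse 3 for 0 (5.89%). Mouse 3 was lowest on both sides for 9 members, against 10.7% of all genes, mouse 1 for 5 (12.6%) and mouse 2 for 0 (4.09%). Contralateral library 2 was the highest of all for 17 of 33 members, 9 of them endothelial, against 27.0% of all genes. The endothelial sum there was 658 CPM, against 505 and 509 CPM in the other contralateral and 503 to 542 CPM in the ipsilateral libraries. The astrocyte markers also summed highest there, at 13999 CPM against 11142 to 12305 CPM elsewhere, and the part of that difference in the vascular values was not tested.

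Some members also followed the mt-Rnr1 sets. Flt1, Cdh5, Abcb1a, Rgs5, Abcc9 and Ogn were higher in each library of the high set than in any of the low set, 6 of 33 against 6.88% of all genes, and Acta2 was lower in each, 1 of 33 against 4.62%. Both libraries of mouse 1 were in the low set and both of mouse 2 in the high set, and only mouse 3 was split. Set and mouse are thus largely the same division of the libraries and cannot be told apart for these members. The part of the mt-Rnr1 sets in these values was not tested. Genes of red blood cells summed to 205, 177 and 231 CPM contralateral and 199, 178 and 228 CPM ipsilateral, and the groups overlapped. Choroid plexus and ependymal genes summed to 230 to 238 CPM contralateral and 239 to 295 CPM ipsilateral, lower contralateral in each mouse and without overlap. Of all genes tested, 6.29% had every contralateral library below every ipsilateral one, and 17.3% were lower in every mouse. Of the 13 genes in this sum 6 could be tested, 3 with negative and 3 with positive log2 fold changes (median -0.04). The 12 macrophage genes of vessels and meninges, 5 of them tested, summed to 26.9 to 35.7 CPM contralateral and 26.7 to 33.6 CPM ipsilateral. In none of these 3 lists, nor in those of excitatory neurons, astrocytes, oligodendrocytes and microglia, did a gene pass in edgeR with or without the block. All 10 oligodendrocyte genes had negative log2 fold changes (median -0.23) and all 12 microglia genes positive ones (median 0.18), and their part in the vascular values was not tested.

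Related pathways were read from lists of other genes. Without the block no gene passed in any of them, among 26 VEGF, angiopoietin and Notch genes tested, 24 of barrier Wnt signalling, 42 other endothelial and barrier genes, 25 other mural genes, 55 other fibroblast genes, 19 of basement membrane, 20 hypoxia-inducible genes and 18 of retinoic acid and thyroid hormone handling. Their median log2 fold changes were 0.07, 0.06, 0.03, 0.09, 0.00, 0.06, -0.18 and 0.03, against 0.03 over all genes. When blocked by mouse 5 genes passed. Of these 4 were lower in contralateral V1, against 0.698% of all genes, and 1 was higher, against 0.195%.

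Those 5 were spread over 5 lists. Tfrc, the transferrin receptor, had 135, 138 and 155 CPM contralateral and 227, 207 and 248 CPM ipsilateral (-0.67, edgeR adjusted p = 0.0840 without and 0.00109 with the block). Nrp2, a coreceptor for VEGF and semaphorins, had 19.3, 21.3 and 19.0 CPM contralateral and 26.8, 34.3 and 23.7 CPM ipsilateral (-0.51, edgeR adjusted p = 0.610 and 0.0463). The hypoxia list gave Ldha, lactate dehydrogenase (-0.50, edgeR adjusted p = 0.591 and 0.0423), and the mural list gave Rgs4, a relative of Rgs5 (-0.57, 0.563 and 0.0329). Col5a1, a fibrillar collagen that regulates fibre assembly, was higher at 76.3, 83.5 and 65.3 CPM contralateral and 58.3, 53.0 and 50.2 CPM ipsilateral (0.48, edgeR adjusted p = 0.491 and 0.0203). In all 5 the groups did not overlap, against 6.29% of all genes with contralateral lower and 6.7% with it higher. The 5 were picked by p-values from these same counts, so this separation is not independent support. Neurons also express Tfrc, Nrp2, Ldha and Rgs4, and the cell type behind these values cannot be told from tissue RNA.

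None of the 1488 circular RNAs in the deposited back-splice table lay within the bounds of a member. Each circular RNA in that table had at least 1 read in every library, so rarer circles were not analysed here.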

How the data were processed

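The authors deposited raw read counts per Ensembl gene, and raw counts of back-splice reads per circular RNA, as the values themselves show. Tools named by the submitters' processing notes are HISAT2, featureCounts, DESeq2 and limma, with the build GRCm38; whether reads were counted by strand is not stated in what was read here. Symbols came from GENCODE M21. Columns of other series numbered 0. The normalized circular RNA files were not used.

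Genes were fitted with edgeR 4.0.16 in R 4.3.3 using TMM factors, filterByExpr (minimum count 10, minimum total 15), the quasi-likelihood test and Benjamini-Hochberg adjustment over 20473 genes with a threshold of 0.05. All 33 members passed the filter. The SE is the size of the log2 fold change divided by the root of F, and intervals are 95%. Both come from the fit without the block unless the block is named. DESeq2 1.42.0 was an alternative. Levels are CPM with TMM factors, or TPM from the deposited gene lengths. Differences per mouse, sums of squares and correlations use log2(CPM + 0.1). The fit was tested on simulated counts with the same dispersion for every gene and no effect of mouse or mt-Rnr1 set. That test therefore does not show how the fit performs on members that vary between mice.

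By the labels, each mouse gave both libraries of a number, so the libraries are paired. Over all genes the residual deviations of a pair correlated at 0.508, 0.0979 and 0.221 in mice 1 to 3. The highest correlation with an opposite-hemisphere library of another mouse was -0.236, 0.193 and 0.193. For mouse 2 at least 1 such comparison was thus closer than its own pair. The planned main fit has no block and the fit with it is an alternative. Without the block, p-values set the difference against the spread of libraries within a hemisphere and treat both libraries of a mouse as independent. With the block, the spread between mice is removed, and p-values are set against what remains between libraries. Both fits rest on these 3 mice.

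Members and lists were chosen with earlier results of these data known. All members are described, and from each other list every gene called with or without the block is named, up to 4 with the smallest p. Members with the smallest p (up to 6 in each fit) or the widest spread have their values in each library.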

Additional observations from a re-analysis of the deposited data

How the results depend on the processing

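Without the block 26 genes passed over all genes; with the mouse as a replicate block 183 did, without a filter on low counts 109, in DESeq2 89, with DESeq2 size factors 27 and with the mt-Rnr1 set as a term 34. Leaving out a library or a mouse gave 0 to 39, with 0 without contralateral library 2 and 0 without mouse 2 (833 and 521 genes at an unadjusted p under 0.05). No member passed in any of these fits. The median log2 fold change of members ran from -0.13 to 0.09 when a library or mouse was left out.

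The block changed no call of a member, and turned the sign of the log2 fold change for Rgs5 (-0.0098) and Ogn (0.047). DESeq2 size factors turned Rgs5 (-0.018), Vtn (-0.0100) and Col1a2 (-0.018), no filter turned Rgs5 (-0.011), Vtn (-0.0032) and Col1a2 (-0.013), and DESeq2 turned Rgs5 (-0.018), Vtn (-0.0098) and Col1a2 (-0.018). The mt-Rnr1 term turned Tie1 (0.063), Rgs5 (-0.13), Vtn (-0.054), Col1a2 (-0.12) and Fmod (-0.050). Leaving out a library or mouse turned the sign of members whose log2 fold changes then ranged as follows: Cldn5 -0.20 to 0.68, Pecam1 -0.094 to 0.18, Kdr -0.25 to 0.020, Tek -0.14 to 0.24, Tie1 -0.16 to 0.19, Cdh5 -0.012 to 0.27, Ly6c1 -0.098 to 0.26, Slco1c1 -0.28 to 0.0017, Itm2a -0.070 to 0.22, Slc2a1 -0.21 to 0.045, Ocln -0.16 to 0.017, Vegfa -0.046 to 0.15, Angpt1 -0.19 to 0.24, Pdgfrb -0.034 to 0.15, Rgs5 -0.19 to 0.13, Vtn -0.17 to 0.12, Col1a2 -0.24 to 0.30, Ogn -0.24 to 0.40, Fmod -0.17 to 0.38, Aldh1a2 -0.71 to 0.24 and Slc13a4 -0.58 to 0.25. The cause was not tested. Flt1, Slco1a4, Mfsd2a, Abcb1a, Esam, Acta2, Abcc9, Dcn, Lum, Col1a1, Col3a1 and Slc6a13 kept their direction in all 14 alternatives. Some of these values were close to 0, such as 0.0016 for Esam without mouse 2 and 0.0022 for Slco1a4 without contralateral library 2. Fits within the mt-Rnr1 sets are not among the 14. In the low set Flt1, Slco1a4, Abcb1a, Abcc9 and Acta2 had the opposite sign. Alternatives for circular RNAs were not run, since none lay in a member. Read depth limits Lum, Slc6a13, Aldh1a2 and Acta2 most, which had at most 36 reads in their lowest library.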
